A study of Homo sapiens with 6 samples.

Results

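The numbered zinc finger genes are the human genes named ZNF followed by a number, and 251 of the 481 such symbols in the count table were described here, out of 30017 genes in the whole table. They were selected by symbol and expression, with earlier results of these data known. A symbol was kept where its mean raw count over the 6 libraries was 200 or more, and *ZNF143* was left out by the rule. The level of a gene is therefore what chose it, and it is given below as a description. The kept genes nearest the limit were *ZNF888*, *ZNF232* and *ZNF567*, at mean counts of 201, 203 and 203, and the nearest genes outside it were *ZNF786*, *ZNF669* and *ZNF830*, at 197, 196 and 194. A further 229 symbols lay below the limit, 27 symbols had no count in any library, and 38 of the kept genes had a mean below 200 in at least 1 group.

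The cells were BLaER1-CTCF-mAID, a subclone of a human B cell leukaemia line that converts into induced macrophages (iMacs) when the transcription factor CEBPA is activated. In every group both the CEBPA system and an auxin-inducible degron on CTCF, the architectural zinc finger protein that halts loop extrusion by cohesin, were present. The 3 groups were B cells at 0 h, cells 96 h after induction with 17β-estradiol, IL-3 and CSF-1 (96 h control), and cells induced in the same way in the presence of the auxin IAA, which was added with the inducing factors and renewed at 48 h (96 h CTCF-depleted). Each group had 2 biological replicates of total RNA-seq. All groups came from 1 clone, and with no IAA-treated line lacking the degron among these libraries the effect of IAA and that of CTCF loss cannot be told apart. In bulk RNA, fewer cells of a type and less RNA per cell likewise cannot be told apart.

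Most numbered zinc finger proteins are C2H2 proteins, in which each finger folds around a zinc ion and reads a few bases of DNA. The largest group carries a KRAB domain, which binds TRIM28 (KAP1) and thereby brings the histone methyltransferase SETDB1 and the heterochromatin protein HP1, so that H3K9me3 is laid down over the bound sequence, often a retroelement. Genes of this group arose by repeated duplication and lie in clusters, above all on chromosome 19.

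Library totals ranged from 9273470 to 12718780 counts, and the 251 genes held between 1.36 and 1.44% of them. Levels are given as CPM, the counts of a gene per 1000000 counts of the library after TMM scaling. The targeted gene, *CTCF*, was read at 231 and 214 CPM at 0 h, 181 and 174 in the 96 h control and 191 and 189 upon CTCF depletion. The degron acts on the protein, so the transcript does not check the depletion. The 7 B cell markers summed to 2163 to 2183 CPM at 0 h, to 386 to 392 in the control and to 340.0 to 355 in CTCF-depleted cells. The 7 macrophage markers summed to 35.1 to 39.0, 4923 to 5165 and 4789 to 4814 CPM in the same order, with 1 marker at 0 at 0 h, so the labelled cell types carried their defining genes. Markers of cycling cells fell at both steps, from 2546 to 2561 CPM at 0 h, through 1644 to 1698 in the control, to 1051 to 1063 upon CTCF depletion, where 4 of the 7 passed both thresholds. Summed markers of T cells (3 of 4 at 0 at 0 h), fibroblasts and epithelial cells were at most 5.28, 11.6 and 0.103 CPM. Of these, *CD2* rose in the conversion, from 0 counts in both libraries at 0 h to 3.53 and 3.52 CPM, and *COL1A1* fell, from 10.4 and 11.5 to 3.97 and 2.78 CPM (log2 -1.70), and their part in the results was not tested.

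By protein, 149 of the 251 genes encoded a KRAB-pattern C2H2 protein, 94 a C2H2 protein without that pattern, and 5 no C2H2 finger by the pattern searched (*ZNF259*, *ZNF330*, *ZNF703*, *ZNF839* and *ZNF862*). For *ZNF271* and *ZNF788* the annotation gave no coding sequence, and *ZNF767* was not matched to it. The KRAB-pattern proteins had a median of 12 fingers and the others a median of 8, and the most were the 36 of *ZNF142*. Of the 119 genes on chromosome 19, 98 were KRAB-pattern. The median CPM of the KRAB-pattern genes over libraries lay between 33.2 and 37.5, and that of the C2H2 genes without the pattern between 48.0 and 56.7. Per kilobase of exon the medians over genes were 5.60 and 8.99 CPM. On this per-length scale the range ran from 1.73 CPM per kb for *ZNF469* to 59.3 for *ZNF217*.

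These genes are close relatives, and reads can be shared between them. In 42 genes over 10% of the 50-base stretches of the main transcript recurred in another gene, in 71 none did, and the median share was 1.55%. None of the 42 was among the genes past both thresholds upon CTCF depletion described below. Exons overlapped those of a gene on the same strand by over 10% in 22 genes and on the opposite strand in 37, among them *ZNF276*, which overlaps *FANCA*. The library kit keeps strand, but the strand setting of the counting was not given in the sources used here, so reads of *ZNF276* and other genes overlapped on the opposite strand may include those of the partner.

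The comparison of 96 h control with 0 h asks which numbered zinc finger genes change as B cells become iMacs. Of the 251 genes, 46 rose and 28 fell (edgeR quasi-likelihood test, adjusted p under 0.01 over 14758 genes and a log2 fold change past 0.6 in size), against a background of 25.4% of all genes tested rising and 22.9% falling. The 74 genes are 29.5% of the list, where 45.9% of all tested genes with a mean count of 200 or more passed in either direction. The median log2 fold change was 0.02, as it was over all genes tested. Summed over the 251 genes the level after TMM scaling was 13318 and 13714 CPM at 0 h and 14072 and 14404 in the control, without overlap. Their share of the unscaled library counts went the other way, at 1.39 and 1.44% at 0 h and 1.36 and 1.38% in the control. The direction of the summed level thus depends on the scaling. The median absolute log2 fold change was 0.38, against 0.54 over tested genes at such counts. Of the 38 genes with a group mean below 200, 14 rose and 8 fell, and of the 213 with every group mean at or above it, 32 rose and 20 fell.

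**Figure D1:**
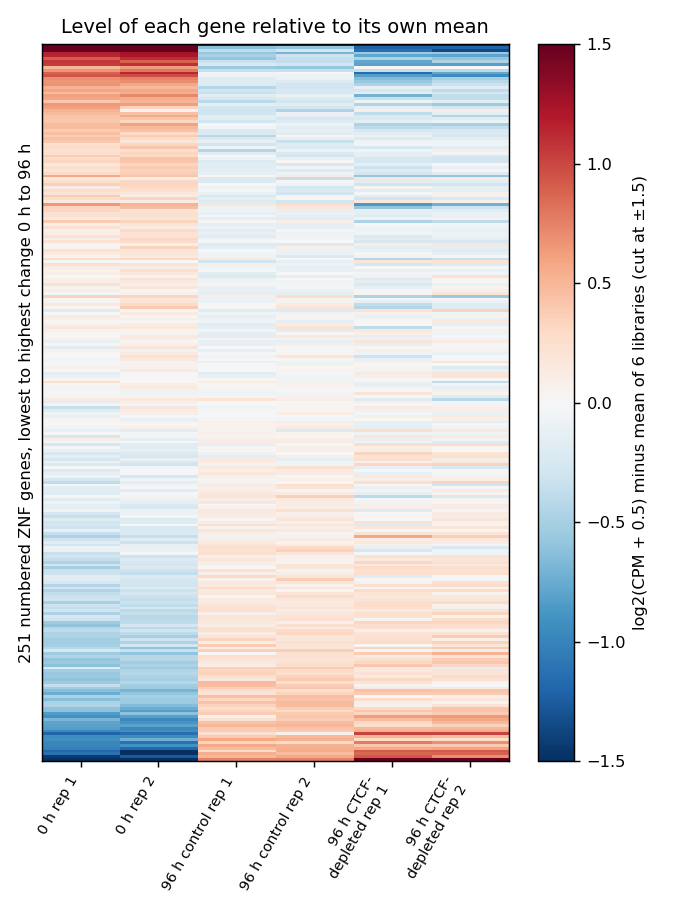
Level of the 251 numbered ZNF genes in the 6 libraries, as log2(CPM + 0.5) minus the mean of the gene over libraries (colour, cut at ±1.5), each row a gene, ordered from the lowest to the highest log2 fold change of 96 h control against 0 h. The 4 libraries at 96 h resemble each other, and the strongest colours lie at both ends, where 28 genes fell and 46 rose.

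The steepest fall was that of *ZNF608* (chr5:124636913-124748807), a relative of *ZNF609* that represses the recombinase genes in mouse thymocytes. It was read at 338 and 329 CPM at 0 h, 2.91 and 5.00 in the control and 4.07 and 3.78 in CTCF-depleted cells. From one of the highest levels of the list in B cells it dropped to near nothing in all 4 libraries at 96 h, 84.6-fold lower in the control (log2 -6.40 ± 0.10 SE, edgeR adjusted p = 7.19e-51). Its relative *ZNF609* went the other way, from 182 and 188 to 281 and 309 CPM (log2 0.67 ± 0.05).

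Other genes fell by less. *ZNF423* (chr16:49487524-49857919), which encodes a partner of the B cell factor EBF1 and a cofactor of BMP-activated SMADs, was at 69.0 and 67.0 CPM at 0 h and 12.2 and 12.5 in the control (log2 -2.46 ± 0.10). *ZNF462*, a gene of a neurodevelopmental disorder, went from 70.3 and 70.2 to 17.7 and 19.1 CPM (log2 -1.93 ± 0.09), and *ZNF507* from 86.7 and 92.4 to 25.8 and 23.8 (log2 -1.85 ± 0.08). For each of these the libraries of the 2 groups were far apart. *ZNF704*, a relative of *ZNF395*, was at 267 and 283 CPM and then 86.6 and 97.4 (log2 -1.58 ± 0.06). *ZNF711*, an X-linked intellectual disability gene whose protein works with the demethylase PHF8, went from 76.5 and 79.2 to 31.2 and 30.0 CPM (log2 -1.35 ± 0.08), and *ZNF70* from 54.8 and 62.8 to 19.2 and 22.5 (log2 -1.51 ± 0.09). The falls were smaller, though as well separated, for *ZNF664* (log2 -1.08 ± 0.06), *ZNF827* (log2 -1.06 ± 0.08), which recruits the NuRD complex to telomeres, and *ZNF618* (log2 -0.86 ± 0.06), a partner of UHRF2.

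Among the genes that rose, the most abundant was *ZNF217* (chr20:53567071-53609907), an oncogene whose protein works with the CoREST repressor complex. It was read at 176 and 174 CPM at 0 h, 439 and 467 in the control and 481 and 461 in CTCF-depleted cells, and the rise to the control was 2.59-fold (log2 1.37 ± 0.05, edgeR adjusted p = 4.64e-33). It had the highest mean CPM over the 6 libraries, 4 of which are at 96 h, followed by *ZNF207*, *ZNF638*, *ZNF609* and *ZNF106*. At 0 h its level lay below those of *ZNF608* and *ZNF704* among others. *ZNF516* rose from 81.9 and 86.0 to 239 and 232 CPM (log2 1.49 ± 0.05) and *ZNF106* from 120.1 and 124 to 305 and 309 (log2 1.33 ± 0.05). *ZNF318*, known for the splicing that gives mature B cells their IgD, was higher in the iMacs, at 133 and 139 CPM against 47.1 and 42.1 at 0 h (log2 1.62 ± 0.07).

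The largest rise in fold was that of *ZNF469* (chr16:88382959-88440757), the gene of brittle cornea syndrome, from 3.09 and 1.80 to 24.3 and 24.4 CPM (log2 3.37 ± 0.17), a gene of low counts at 0 h. *ZNF333* rose from 9.59 and 11.0 to 38.1 and 40.4 CPM (log2 1.92 ± 0.11) and *ZNF467* from 19.3 and 13.6 to 62.2 and 58.8 (log2 1.91 ± 0.10). *ZNF746*, which encodes the Parkin substrate PARIS, rose by 1.32 ± 0.07 on the log2 scale, *ZNF276* by 1.31 ± 0.08 and *ZNF652*, a partner of the corepressor CBFA2T3, by 1.10 ± 0.07. In all of these the control libraries lay above both libraries at 0 h.

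By protein class, 25 (16.8%) of the KRAB-pattern genes rose and 5 (3.36%) fell, both shares below the background of 25.4% and 22.9%, with a median log2 fold change of 0.00, whereas of the C2H2 genes without the pattern 19 (20.2%) rose and 22 (23.4%) fell, with a median of 0.04 and a wider spread (median absolute log2 fold change 0.51 against 0.35). In either direction the shares were 20.1% and 43.6%, where 45.9% of tested genes with a mean count of 200 or more passed. On chromosome 19, 18 rose and 9 fell, and on the other chromosomes 27 and 19. These are counts of related genes that passed a count limit which favours rising genes, and the difference between classes was not tested.

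Chromosome 19 holds 8 physical clusters with 5 or more of these genes, where a cluster is a run of numbered ZNF genes whose starts are at most 500000 bases apart. In the second of them along the chromosome (chr19:11483427-12640098), 11 of 13 genes had a log2 fold change above 0 with a median of 0.54, and 5 rose: *ZNF441* (1.39), *ZNF44* (0.82), *ZNF439* (0.79), *ZNF700* (0.74) and *ZNF844* (0.73). In the third (chr19:19668796-24129968), near the centromere and home of the SVA repressor *ZNF91*, 16 of 21 were below 0 with a median of -0.28. There *ZNF730* (-1.08), *ZNF90* (-0.82) and *ZNF681* (-0.65) fell and *ZNF506* (1.01) rose. In the fourth (chr19:36182276-37817300) the median of 7 genes was -0.37, and *ZNF569* (-0.89), *ZNF260* (-0.85) and *ZNF850* (-0.80) fell. The large clusters at the end of the long arm, of 27 and 20 genes, had medians of -0.06 and 0.23 with 4 and 3 genes rising and 0 falling. Over all 14758 genes tested, 7489 lay above 0 and 7268 below, and 25.4% rose and 22.9% fell. Neighbours in a cluster are related in sequence and can share reads, *ZNF788*, *ZNF564* and *ZNF490* of the second cluster most of all. Their signs are thus not independent and were not tested.

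The comparison of CTCF-depleted with control cells at 96 h asks which of these genes depend on CTCF during conversion. Few moved by much: 2 rose, *ZNF469* and *ZNF558*, and 7 fell, *ZNF777*, *ZNF730*, *ZNF462*, *ZNF827*, *ZNF184*, *ZNF398* and *ZNF423*, against a background of 5.41% of all genes tested rising and 7.03% falling. The split rests on single libraries: without the second control replicate 5 rose and 4 fell, and without the second depleted replicate 4 rose and 9 fell. The 9 genes are 3.59% of the list, where 9.69% of all tested genes with a mean count of 200 or more passed in either direction. With the fold change threshold dropped, 27 rose and 37 fell, against a background of 12% and 17.4%. The median log2 fold change was -0.01 (-0.03 over all genes tested, -0.05 over those with a mean of 200 or more), and the median absolute value was 0.15 against 0.17 at such counts. Most differences upon CTCF depletion were therefore small, as the distributions of log2 fold change show. Of the 38 genes with a group mean below 200, 2 rose and 4 fell, and of the other 213, 0 rose and 3 fell. By class, 1 of the 149 KRAB-pattern genes rose and 4 fell, and 1 and 3 of the 94 without the pattern.

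**Figure D2:**
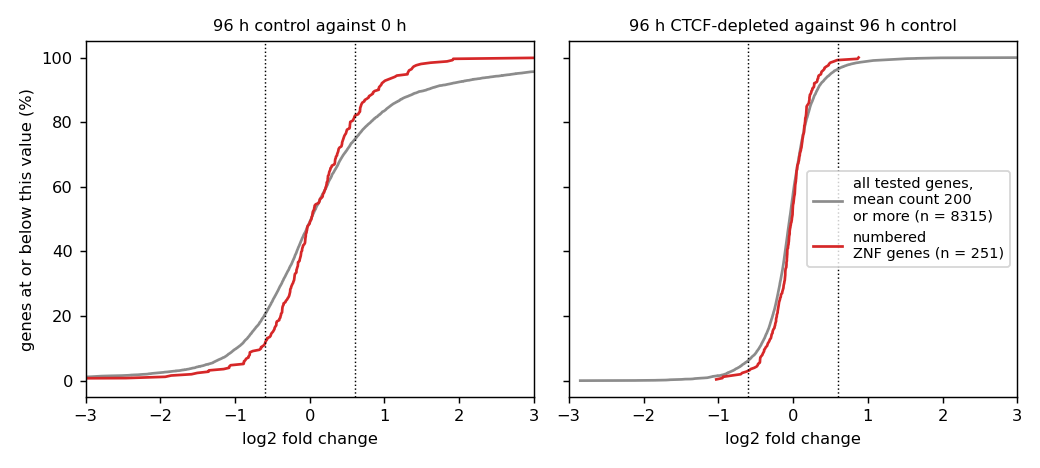
Cumulative share of genes (%) by log2 fold change, for 96 h control against 0 h (left) and 96 h CTCF-depleted against 96 h control (right), for the 251 numbered ZNF genes and the 8315 tested genes with a mean count of 200 or more, with dotted lines at the threshold of 0.6. In both panels the curve of the ZNF genes is the steeper, with 29.5% against 45.9% of genes past both thresholds on the left and 3.59% against 9.69% on the right.

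The largest fall was that of *ZNF777* (chr7:149431363-149461062), a KRAB-pattern gene with 9 fingers. It was read at 42.0 and 38.1 CPM at 0 h, 30.0 and 31.9 in the control and 14.4 and 15.9 upon CTCF depletion. Both depleted libraries lay below all others, 2.04-fold lower than the control (log2 -1.03 ± 0.11 SE, edgeR adjusted p = 5.97e-12). *ZNF398* (chr7:149126416-149183042), on the same stretch of chromosome 7, encodes ZER6, which binds oestrogen receptor alpha. It was read at 67.9 and 60.9 CPM, 46.3 and 50.4 and 30.2 and 30.1 in the same order, a decrease of 1.60-fold upon CTCF depletion (log2 -0.68 ± 0.09, edgeR adjusted p = 3.00e-09). Without the second control replicate its log2 fold change was -0.59, inside the threshold.

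*ZNF184* (chr6:27450743-27473118), a KRAB-pattern gene with 19 fingers beside the large histone cluster of chromosome 6, had barely moved in the conversion. Its level was 44.7 and 43.7 CPM at 0 h, 37.0 and 42.1 in the control and 25.2 and 23.5 upon CTCF depletion, 1.62-fold lower than the control with no overlap (log2 -0.70 ± 0.09, edgeR adjusted p = 4.86e-09). This call too was lost without the second control replicate (log2 -0.57). *ZNF730* (chr19:23075210-23147221), in the third chromosome 19 cluster, was at 43.3 and 51.8 CPM, 22.6 and 22.8 and 10.2 and 13.4 (log2 -0.95 ± 0.12, edgeR adjusted p = 7.16e-09), the depleted replicates lying further apart than the control replicates.

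Like *ZNF777*, *ZNF398* and *ZNF730*, the remaining genes that fell were already lower in the control than at 0 h. The control libraries are part of both differences. *ZNF462* (chr9:106863166-107013634), with 33 fingers, was at 70.3 and 70.2 CPM at 0 h, 17.7 and 19.1 in the control and 10.4 and 8.84 upon CTCF depletion (log2 -0.94 ± 0.12, edgeR adjusted p = 6.81e-09). *ZNF827* (chr4:145757627-145938823) was at 67.1 and 68.9, 32.8 and 32.5 and 19.4 and 17.8 CPM (log2 -0.82 ± 0.10, edgeR adjusted p = 2.92e-10). *ZNF423*, with 27 fingers, was at 7.96 and 8.01 CPM in CTCF-depleted cells against the 12.2 and 12.5 of the control (log2 -0.63 ± 0.14, edgeR adjusted p = 1.98e-04). In *ZNF462*, *ZNF827* and *ZNF423* the order of the groups was the same, with no overlap between any of them. *ZNF423* was the least secure of the calls: its log2 fold change was -0.58 without the first depleted or the second control replicate and -0.59 with no filter on low counts or with only the 4 libraries compared.

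Both genes that rose were also higher in the control than at 0 h. *ZNF558* (chr19:8806170-8832314), whose KRAB protein represses the mitophagy gene *SPATA18*, was at 10.0 and 10.6 CPM at 0 h, 28.2 and 24.8 in the control and 48.4 and 48.3 upon CTCF depletion, 1.82-fold above the control (log2 0.86 ± 0.09, edgeR adjusted p = 9.78e-12). Its 8 neighbours in the first chromosome 19 cluster had log2 fold changes between -0.23 and 0.16. *ZNF469* was at 46.2 and 43.3 CPM in CTCF-depleted cells against 24.3 and 24.4 in the control (log2 0.88 ± 0.10, edgeR adjusted p = 1.19e-10). Just short of the threshold, *ZNF639* was higher in CTCF-depleted cells at 35.1 and 34.8 CPM against 23.4 and 23.1 (log2 0.59 ± 0.09), after 49.2 and 53.7 at 0 h, and *ZNF544* was lower, at 42.4 and 47.9 against 64.0 and 71.5 (log2 -0.58 ± 0.08). The lower level of cycling markers upon CTCF depletion, from 1644 to 1698 CPM in the control to 1051 to 1063, stands beside these 9 genes. So do 3 of the cell type markers, of which *ITGAM* rose upon CTCF depletion (log2 1.15) while *MPEG1* (log2 -1.11) and *VPREB1* (log2 -0.89) fell. The part of these markers in the 9 genes was not tested.

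Promoters of these genes are shown because CTCF also binds near transcription start sites. RefSeq promoters (GRCh38.p14, 250 bases before to 50 after the start) were at hand for 5 of the 9 genes: *ZNF184*, *ZNF398*, *ZNF423*, *ZNF558* and *ZNF730*. *ZNF777*, *ZNF827*, *ZNF462* and *ZNF469* had no entry. They were searched on both strands for 4 words of the CTCF core, AGGTGGC (the first word), AGGGGGC (the second word), AGATGGC (the third word) and AGAGGGC (the fourth word). At least 1 word stood in 30.5% of all 35116 promoters and in 37.4% of the 270 promoters of the 251 genes. It stood in 4 of the 6 promoters of genes that fell and in 0 of 2 promoters of *ZNF558*. By gene, 3 of 4 that fell had a match, beside 94 (43.9%) of the 214 listed genes with a promoter. *ZNF184*, which fell, had none, and neither did the *ZNF423* promoter at chr16:49664275-49664574. With so few genes no link between match and direction can be drawn. A match is a description of letters and not a bound site. Printed as examples, 5′ to 3′ on the strand of the gene with the matched word in capitals, are the promoter of *ZNF398* with the word on the opposite strand (chr7:149126158-149126457, plus strand), that of *ZNF730* with a word on the gene strand (chr19:23116775-23117074, plus strand) and that of *ZNF558* with none (chr19:8832255-8832554, minus strand).
ZNF398: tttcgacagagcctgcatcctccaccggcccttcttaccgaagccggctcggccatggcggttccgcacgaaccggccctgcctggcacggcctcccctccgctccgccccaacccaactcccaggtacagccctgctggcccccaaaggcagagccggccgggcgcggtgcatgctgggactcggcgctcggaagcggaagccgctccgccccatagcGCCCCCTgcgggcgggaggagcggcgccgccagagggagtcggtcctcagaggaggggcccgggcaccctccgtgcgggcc
ZNF730: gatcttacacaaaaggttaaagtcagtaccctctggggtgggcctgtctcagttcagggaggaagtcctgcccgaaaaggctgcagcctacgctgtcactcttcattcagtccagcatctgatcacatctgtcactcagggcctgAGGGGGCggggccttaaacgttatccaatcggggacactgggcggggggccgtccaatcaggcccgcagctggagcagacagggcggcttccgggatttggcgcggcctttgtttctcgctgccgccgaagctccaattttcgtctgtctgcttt
ZNF558: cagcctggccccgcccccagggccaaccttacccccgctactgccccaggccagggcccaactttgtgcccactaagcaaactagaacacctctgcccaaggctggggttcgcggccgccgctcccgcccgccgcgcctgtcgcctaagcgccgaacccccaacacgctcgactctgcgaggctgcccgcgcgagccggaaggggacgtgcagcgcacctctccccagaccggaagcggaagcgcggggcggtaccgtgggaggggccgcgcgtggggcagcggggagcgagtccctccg

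*ZNF398* and *ZNF777* lie in 1 cluster of chromosome 7 (chr7:149069641-149867479), which was singled out after its values were seen. Of its 12 tested genes 10 were numbered ZNF genes, 7 of them in the list. In genome order the log2 fold changes upon CTCF depletion were 0.42 for *ZNF786* (edgeR adjusted p = 0.00471), 0.29 for *ZNF425*, -0.68 for *ZNF398*, -0.23 for *ZNF282*, -1.14 for *ZNF212*, 0.55 for *ZNF783*, -1.03 for *ZNF777*, 0.09 for *ZNF746*, -0.04 for *KRBA1*, 0.37 for *ZNF467*, 0.58 for *SSPO* and 0.50 for *ZNF862*. By the edgeR adjusted p alone, 3 of the ZNF genes were lower and 4 higher, against a background of 17.4% and 12% of all genes tested. Genes of opposite direction stood side by side. *ZNF212*, too low in count for the list, went from 19.6 and 19.4 CPM in the control to 8.89 and 8.75 (edgeR adjusted p = 1.04e-09), while *ZNF783*, the next gene, went from 18.9 and 18.5 to 29.4 and 25.2 CPM (edgeR adjusted p = 8.22e-05). At the far end *ZNF862*, which encodes no C2H2 finger by the pattern, went from 30.3 and 36.5 to 47.2 and 47.0 CPM (edgeR adjusted p = 9.78e-06) after 10.6 and 8.33 at 0 h.

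Several genes with a known role moved by less than the fold threshold upon CTCF depletion. Of the retroelement repressors, *ZNF91* was lower, at 133 and 140.3 CPM against 154 and 164 (log2 -0.22 ± 0.06, edgeR adjusted p = 0.00186), and *ZNF93*, which represses L1 elements, lower again, at 41.8 and 35.8 against 55.8 and 51.5 (log2 -0.47 ± 0.08, edgeR adjusted p = 6.55e-06). The imprinting regulator *ZNF445* had a log2 fold change of -0.11 (edgeR adjusted p = 0.205) and *ZNF274*, which brings SETDB1 to ZNF genes themselves, one of 0.00 (edgeR adjusted p = 0.991), with overlapping libraries for *ZNF274*.

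*ZNF598*, the ubiquitin ligase that senses collided ribosomes, was higher in the control than at 0 h (log2 0.37 ± 0.07) and lower upon CTCF depletion (log2 -0.44 ± 0.07), its levels being 79.7 and 76.7, 99.0 and 103 and 77.5 and 71.5 CPM. *ZNF259* (ZPR1) showed the mirror image, at 50.6 and 49.0, 39.1 and 35.9 and 51.8 and 50.5 CPM. In both, CTCF-depleted cells stood near the level of B cells, although the control libraries are shared by the 2 differences. Of the Z3 complex that works with ZMYND8, *ZNF592* had a log2 fold change of 0.92 in the conversion and -0.25 upon CTCF depletion, and *ZNF687* of 0.44 and 0.14 (the last at an edgeR adjusted p of 0.119). *ZNF281* was higher in CTCF-depleted cells (log2 0.32, edgeR adjusted p = 1.49e-04) and *ZNF292* lower (log2 -0.26, edgeR adjusted p = 2.41e-04). *ZNF335* rose in the conversion (log2 0.66), with the value at 0.59 without the second replicate at 0 h. *ZNF148*, *ZNF384* (a fusion gene of B cell leukaemia) and the spindle factor *ZNF207* differed by 0.02, 0.06 and 0.12 upon CTCF depletion, and *ZNF638* by -0.10, all short of the adjusted p threshold.

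The median shift upon CTCF depletion differed between clusters. The lowest median was that of the fourth chromosome 19 cluster, -0.32, where 6 of 7 genes lay below 0 and 0 passed both thresholds. *ZNF569*, *ZNF566*, *ZNF850* and *ZNF529* were lower there by the adjusted p alone (log2 -0.44, -0.42, -0.35 and -0.32). *ZNF345* and *ZNF829* of the same cluster, below the count limit, were lower as well. In the third cluster 16 of 21 were below 0, with a median of -0.08, and 6 were lower by adjusted p alone, *ZNF682*, *ZNF714*, *ZNF93*, *ZNF90*, *ZNF91* and *ZNF730*. Over all 14758 genes tested, 7992 lay below 0 and 17.4% were lower by adjusted p alone. Neighbours are related genes, and their signs were not tested. Of the 119 genes on chromosome 19, 1 rose and 1 fell past both thresholds, and of the 131 on other chromosomes 1 and 6. The background was 5.41% of all genes tested rising and 7.03% falling.

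Cells at 96 h without CTCF were also set against B cells, a comparison that shares its 0 h libraries with the first. Of the 251 genes 48 rose and 36 fell, against a background of 27.2% and 25.2% of all genes tested, and the 84 are 33.5% of the list where 50.3% of tested genes with a mean of 200 or more passed. Side by side, the log2 fold changes from 0 h to control and from 0 h to depleted cells were -0.36 and -1.39 for *ZNF777*, -0.16 and -0.86 for *ZNF184*, and -0.41 and -1.09 for *ZNF398*. The comparisons come from 1 fit, so the second value of each pair is the first plus the change upon CTCF depletion. In these 3 genes the first value lies inside the threshold of 0.6 and the second beyond it. That follows from their choice, as each fell past 0.6 upon CTCF depletion and was already below 0 in the control. For *ZNF462* they were -1.93 and -2.87, for *ZNF423* -2.46 and -3.09, for *ZNF469* 3.37 and 4.24, and for *ZNF558* 1.36 and 2.23. For *ZNF608* and *ZNF217* the pairs were -6.40 and -6.40, and 1.37 and 1.43, nearly equal. Of the KRAB-pattern genes, 27 rose and 16 fell in this comparison.

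The proteins with which KRAB zinc fingers work were read in the same fit, as a list of 24 tested genes of the corepressor and the H3K9 methylation machinery. In the conversion 1 rose, *ATF7IP* (0.88), the SETDB1 partner, and 8 fell, against the background of 25.4% rising and 22.9% falling, with a median log2 fold change of -0.48. *TRIM28*, the corepressor itself, was at 604 and 559 CPM at 0 h and 313 and 325 in the control (log2 -0.87 ± 0.05, edgeR adjusted p = 2.08e-24), and *SETDB1* at 81.4 and 83.6 and then 107 and 109.7 (log2 0.40 ± 0.06), higher by less than the fold threshold. The HP1 genes *CBX5*, *CBX1* and *CBX3* fell by log2 -0.79, -0.90 and -0.72, the H3K9 methyltransferases *SUV39H2* and *EHMT2* by -1.44 and -0.81, *HDAC2* by -1.01 and *UHRF1*, which keeps DNA methylation through replication, by -2.38. Upon CTCF depletion 0 of the 24 rose and 1 fell, *UHRF1*, at 62.2 and 60.9 CPM against 124 and 123 (edgeR adjusted p = 3.24e-21), against a background of 5.41% and 7.03%, and the median was -0.18. *TRIM28* was lower by less than the fold threshold (log2 -0.23 ± 0.05, edgeR adjusted p = 6.62e-05). By the adjusted p alone *ATF7IP*, *CBX3*, *CBX5*, *CHD3*, *DNMT1*, *PPHLN1*, *TRIM24* and *SUV39H2* were also lower. *MORC2*, *MPHOSPH8* and *FAM208A* were higher by it (log2 0.40, 0.29 and 0.17). Of all genes tested, 17.4% were lower and 12% higher by the adjusted p alone. Of tested genes with a mean count of 200 or more, 38.0% passed it in either direction. Against 0 h, 0 rose and 11 fell in CTCF-depleted cells, where the background was 27.2% and 25.2%. Several of these genes are highest in dividing cells, and the cycling markers fell at the same steps, from 2546 to 2561 CPM at 0 h to 1644 to 1698 in the control. Their part in the list was not tested.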

How the data were processed

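Counts per gene were made by the authors before they were deposited: per the study's methods and the processing notes in the labels, reads of stranded, ribosomal RNA-depleted total RNA libraries were aligned to hg38 with STAR 2.6.1d in the nf-core/rnaseq pipeline and counted with featureCounts 2.0.6. The methods name the exons of protein-coding genes, but the table also holds genes that GENCODE gives as pseudogenes, such as *ZNF271*, *ZNF788* and *SSPO*, so the set of genes counted is not fully given. The annotation release and the strand setting were not given in the sources used here. The 251 genes, the corepressor list and the marker lists were chosen with earlier results of these data known. A further marker list is not reported here.

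From the raw counts, edgeR 4.0.16 (filterByExpr, TMM, glmQLFit and glmQLFTest, condition as the only term) was run on all 6 libraries in 1 fit, with p-values adjusted by Benjamini-Hochberg over the 14758 genes that passed the filter, the 251 among them. A gene rose or fell where its adjusted p was under 0.01 and its log2 fold change past 0.6 in size, which are the limits given in the methods. The common biological coefficient of variation was 3.96%. Each SE is the size of the log2 fold change divided by the square root of the F statistic of the edgeR test. It is not an error taken from the replicates of the gene alone. An exact two-sided permutation test of 2 libraries against 2 cannot go below p = 0.333. The replicates are labelled biological, and p-values measure only the spread between replicates. That spread is largely shared across genes by the fit (prior degrees of freedom 51.7), and little of it comes from the 2 libraries a group of the gene itself. Replicates of a group differed by more than sampling noise (chi-square per degree of freedom 2.69, 1.90 and 1.71), so each was counted as 1 sample. The script was tested on simulated data.

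Positions, coding sequences and exon overlaps were taken from GENCODE 44 (hg38), with 250 of the 251 symbols matched. Fingers were counted as C-x(2,4)-C-x(12)-H-x(3,5)-H, and KRAB boxes by a pattern that can miss divergent ones. Genes named in the text were the genes past both thresholds upon CTCF depletion, up to 10 in each direction by adjusted p in the conversion, the 5 with the highest mean CPM, those nearest the count limit, the list members past the thresholds and those with a known textbook role. Other genes were named after their values were seen: those of the chromosome 7 cluster and the chromosome 19 clusters. So were *ZNF639* and *ZNF544*, just short of the threshold, and corepressor genes past the adjusted p alone.

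Same-numbered replicates did not deviate together (correlations of -0.02, 0.01 and -0.03), so the replicate number was not used as a block in the reported fit. Alternatives were DESeq2 1.42.0 (the tool of the study), RLE normalization, other filters on low counts, only the 4 libraries compared, the replicate block, glmTreat, other thresholds, other count limits for the list and leaving out each replicate.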

Additional observations from a re-analysis of the deposited data

How the results depend on the processing

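The counts of genes that rose or fell (74 in the conversion, 9 upon CTCF depletion, 84 in CTCF-depleted cells against 0 h) moved most with the thresholds. At an adjusted p below 0.05 with no fold change threshold they were 190, 91 and 189, at an adjusted p below 0.01 alone 167, 64 and 172, and at an absolute log2 fold change above 1 they were 31, 1 and 41. Testing against a log2 fold change of 0.6 with glmTreat left 52, 1 and 58. With the list cut at a mean count of 500 they were 34, 1 and 38 of fewer genes, with medians of 0.16, 0.01 and 0.11 in the same order, and at a mean count of 100 they were 104, 16 and 116 of more genes. DESeq2 gave 75, 10 and 84. Leaving out each replicate gave 74 to 78, 9 to 13 and 83 to 91. Upon CTCF depletion the split of 2 higher and 7 lower became 5 and 4 without the second control replicate and 4 and 9 without the second depleted replicate. The median log2 fold change upon CTCF depletion ranged from -0.00348 to 0.0313 when 1 replicate was left out, against -0.01 with all. It was above 0 without the second control or either depleted replicate, with no filter and with only the 4 libraries compared (both 0.02). The median in the conversion was -0.01 with no filter, so neither median has a settled direction.

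With the replicate block the counts were 75, 9 and 84. Single genes were recomputed for 48 named genes in the conversion and upon CTCF depletion, and 937 of the 958 recomputed values stayed on their side of the thresholds. In 23 of them, from 9 of the 96 differences and none past the thresholds, the sign turned. The further cluster genes, the corepressor list and single genes of the depleted cells against 0 h were not recomputed. Of the genes past the thresholds upon CTCF depletion, *ZNF398* and *ZNF184* fell short without the second control replicate (-0.59 and -0.57), and *ZNF423* without the second control or the first depleted replicate (-0.58 in both), with no filter or with 4 libraries (-0.59 in both). *ZNF639* passed in 9 alternatives, DESeq2 among them (0.60). *ZNF544* passed without the second depleted or the first control replicate (-0.64 and -0.63), *ZNF783* without the second depleted replicate (0.68) and *ZNF862* without the second control replicate (0.67). In the conversion *ZNF335* fell short without the second 0 h replicate (0.59), and *ZNF274* passed without the second control replicate (0.61). The cause was not tested. With 2 libraries a group, changes in genes of low count are estimated least precisely.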

Other observations

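Among the 167 numbered ZNF genes below the count limit that were tested, 4 were higher and 9 lower upon CTCF depletion past both thresholds (edgeR), against 5.41% and 7.03% of all genes tested, and the largest difference of all numbered ZNF genes was one of these. *ZNF185* (chrX:152898067-152973481), which encodes a LIM domain protein of the actin cytoskeleton, was read at 0.928 and 1.65 CPM at 0 h, 0.706 and 1.30 in the control and 35.6 and 32.5 in CTCF-depleted cells. Its raw counts were 8 and 14 in the control and 384 and 353 upon CTCF depletion (log2 5.08 ± 0.22 SE, edgeR adjusted p = 4.00e-27), and it ranged from 4.73 to 5.60 over the alternatives. *ZNF521*, a relative of *ZNF423* and an antagonist of EBF1, was lower in both depleted libraries, at 5 and 7 counts against 34 and 26 in the control (log2 -2.27 ± 0.46, edgeR adjusted p = 5.03e-05), after 8 and 12 at 0 h. *ZNF345* and *ZNF829*, both in the fourth chromosome 19 cluster, were lower as well (log2 -0.65 and -0.82). These genes were named after their values were seen, and their counts are low.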
